A study of Mus musculus with 6 samples.

Results

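The elastic fibre and microfibril genes examined here were Eln, Fbn1, Fbn2, Fbln1, Fbln2, Fbln5, Efemp1, Efemp2, Mfap2 and Emilin1, matched by symbol in the gene annotation table and joined by gene identifier to the count and FPKM tables. These were 10 of the 54532 genes in the tables. RNA was sequenced from mouse bone marrow mesenchymal stem cells (BMSCs), adherent marrow cells that can become osteoblasts, in 3 control libraries and 3 libraries of cells given 0.1 μM nickel (Ni). All cells were wild type and primary, and both groups spent 7 days in the same osteogenic medium, with ascorbic acid at 50 μg/mL, β-glycerophosphate at 10 mM and, per the labels, dexamethasone at 100 nM. The paper's methods give a lower dexamethasone concentration. The study describes the 3 samples of each group as independent biological replicates, and the controls as receiving vehicle. The labels give neither the strain nor the age of the mice. The comparison asked how a low dose of nickel alters gene expression during osteogenic differentiation.

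Elastic fibres have a core of cross-linked elastin deposited on a scaffold of fibrillin microfibrils, and give tissues such as arteries, lung and skin their recoil. Fibulins link tropoelastin, microfibrils and lysyl oxidase during assembly, and emilin-1 and MFAP2 associate with the fibres or microfibrils. Bone matrix holds little elastin, but its fibrillin microfibrils bind latent TGF-β complexes and bone morphogenetic proteins, and mutations in fibrillin genes alter the skeleton.

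The libraries held from 16101033 to 18642504 counts, and 14624 genes passed the filter on low counts. They included 9 of the 10 members, the exception being Eln. Libraries are given throughout in the order of their replicate numbers. The members took 0.126%, 0.122% and 0.183% of the counts of the control libraries and 0.186%, 0.183% and 0.182% of those of the Ni libraries. Control replicate 3 stood apart from the other controls: over all genes tested, 67.6% lay closer in that library to the Ni mean than to the mean of control replicates 1 and 2, and 8 of the 9 members tested did so. Whether that library carries the right label could not be checked from the counts, and every control mean and fold change from 6 libraries rests on it. Fold changes, sums and shares are therefore given with and without it. That library was singled out from these same counts, in which it lies near the Ni libraries. Leaving it out therefore favours larger fold changes and smaller p-values. Over all genes, those at an adjusted p under 0.05 in edgeR went from 0 of 14624 to 2283 of 15044. Adjusted p-values and calls without it are given as description and do not test nickel. Ni replicate 2 also stood apart from its group, though less. The chi-square per degree of freedom of its counts was 18.6 against Ni replicate 1 and 21.7 against Ni replicate 3. Those 2 libraries stood at 4.37. For control replicate 3 it was 40.5 and 43.6 against the other controls, which stood at 8.07. Against the label of mesenchymal stem cells, the 8 general stromal markers were all detected. Their summed levels were 2242 to 2707 CPM in controls and 1844 to 2052 CPM in Ni libraries, CPM being counts scaled to library size. Most of that sum was Cxcl12, and of the 8 markers 4 had positive fold changes. Every Ni library lay above every control for 0 of them (7.97% of all genes tested) and below for 1 (6.71%). The 10 macrophage markers were also detected, at 21531 to 26384 CPM in controls and 21375 to 22827 CPM in Ni libraries. Lyz2 had the most counts of them, 152670 to 251667 a library. Of the 10 markers 4 had positive fold changes. Every Ni library lay above every control for 0 of them (7.97% of all genes) and below for 2 (6.71%). The 9 osteoblast markers summed to 5662, 6092 and 11465 CPM in the controls and to 20350, 14822 and 20053 CPM in the Ni libraries. For 9 of 9, every Ni library lay above every control, control replicate 3 included (7.97% of all genes). Of the 5 neutrophil markers, S100a9 and Ngp were at 0 counts in all libraries, and S100a8 had 10 to 23 counts, Mpo 0 to 7 and Elane 0 to 1. In bulk libraries, fewer cells of a type and less RNA per cell cannot be told apart.

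Per length, the members spanned a wide range of levels. FPKM, the fragments of a gene scaled to its length in kilobases and to library size, divides by gene length, so that genes can be ranked on it. Such ranks depend on the length used. The deposited length was 2648 bases for Efemp2 and 10480 for Fbn2, against 3788 and 13215 exon bases in GENCODE M21. A greater length lowers FPKM. The order of Efemp2 and Fbln2, the share of Fbn2, the shares of all 5 fibulins and the summed FPKM given below therefore hold for the deposited lengths only. Each fibulin share is divided by a sum that contains Efemp2. The mean FPKM over the 6 libraries was 75.3 for Efemp2, 67.7 for Fbln2, 40.2 for Emilin1, 38.0 for Fbln5, 36.1 for Fbn1, 15.6 for Mfap2, 13.9 for Efemp1, 8.38 for Fbln1, 1.32 for Fbn2 and 0.0658 for Eln. The order of the group means was the same in control and Ni libraries. Of the neighbours in that order, the levels of Efemp2 and Fbln2, Emilin1 and Fbln5, Fbln5 and Fbn1, and Mfap2 and Efemp1 overlapped between libraries. Fbln2 and Emilin1 overlapped in the controls but not in the Ni libraries. At the steps from Fbn1 to Mfap2, from Efemp1 to Fbln1, from Fbln1 to Fbn2 and from Fbn2 to Eln, the ranges over the 6 libraries did not overlap.

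**Figure D1:**
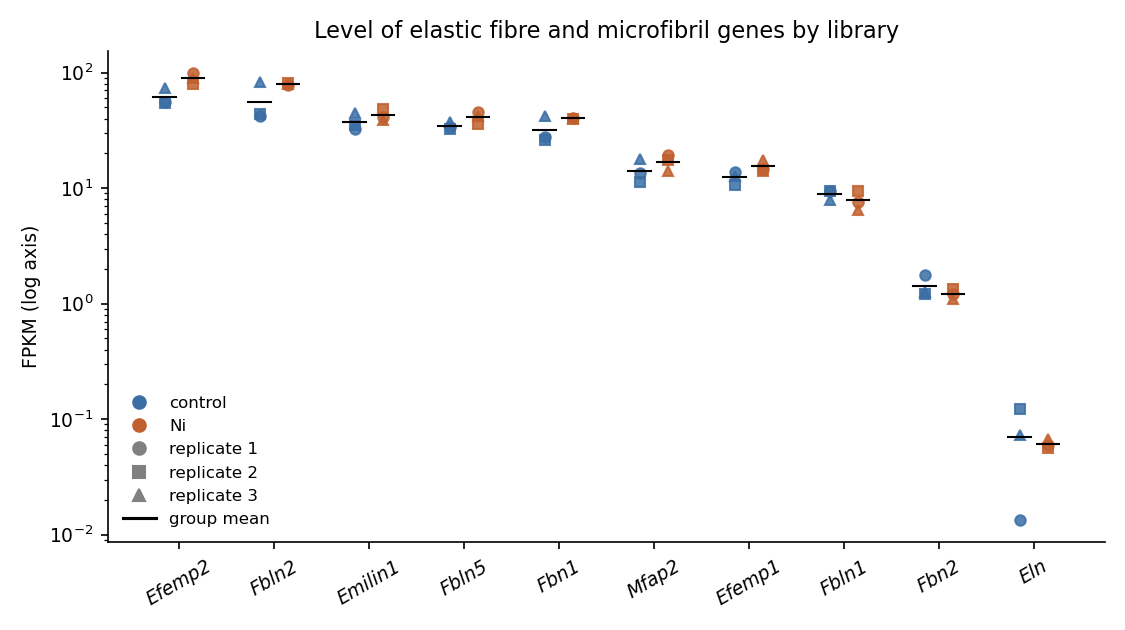
FPKM of the 10 genes (log axis) in the 3 control libraries (blue) and 3 Ni libraries (orange), with the marker shape giving the replicate and the bar the group mean. Efemp2 and Fbln2 had the highest means, 75.3 and 67.7 FPKM, and Eln the lowest, 0.0658 FPKM.

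Eln (ENSMUSG00000029675) encodes tropoelastin, the soluble precursor of the elastic core, and lies on the minus strand of chromosome 5 from 134702593 to 134747323 (GRCm38). Its reads numbered 2, 16 and 10 across controls, against 9, 8 and 10 with Ni. These corresponded to 0.0134, 0.124 and 0.0734 FPKM in controls and 0.0602, 0.0563 and 0.0679 FPKM in Ni libraries. The Ni libraries lay within the range of the controls, and the count of control replicate 1 was under the floor of 3 counts. Pooled by group, Eln stood at 0.550 CPM (of the raw library totals) in controls (28 counts, exact Poisson 95% interval 0.366 to 0.796) and at 0.500 in Ni libraries (27 counts, interval 0.330 to 0.727), intervals that cover counting error only. A difference in Eln was not detectable at this depth. Fbn1 stood between 210.3 and 708.9 times above Eln in FPKM in the 5 libraries with over 3 Eln counts, and 2046 times above it in control replicate 1, with a counting interval of 566.4 to 16896. Eln had the lowest FPKM of the 10 genes in every library.

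Fbn1 (ENSMUSG00000027204) encodes fibrillin-1, the main protein of microfibrils after birth, and lies on the minus strand of chromosome 2 from 125300594 to 125507993. Its level was 27.4, 26.0 and 42.1 FPKM in the controls and 40.4, 39.9 and 40.6 FPKM in the Ni libraries. The Ni libraries were close together, with a mean of 40.3 ± 0.36 FPKM (SD, n = 3), whereas the controls, at 31.8 ± 8.91 FPKM (SD, n = 3), were split, with control replicate 3 above all 3 Ni libraries. The log2 fold change of Ni against control was 0.34 (standard error 0.17, edgeR quasi-likelihood test with Benjamini-Hochberg adjustment, adjusted p = 0.421). Without control replicate 3 it was 0.60 (standard error 0.08, adjusted p = 0.000546), and Fbn1 was then called higher, whereas without control replicate 2 it was 0.21 (adjusted p = 0.880). In the annotation, 20.1% of the exon bases of Fbn1 lie under exons of Gm9913 on the opposite strand. Gm9913 had at most 7 counts in a library, against at least 5039 for Fbn1, and no source used here says if strand was used in counting.

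Fbn2 (ENSMUSG00000024598) encodes fibrillin-2, which is made mostly in development, and lies on the minus strand of chromosome 18 from 58008623 to 58209926. Its level was 1.76, 1.22 and 1.25 FPKM in controls and 1.21, 1.35 and 1.10 FPKM in Ni libraries. Control replicate 1 was the highest of the 6, and the other 5 libraries interleaved. On the log2 scale the fold change was -0.21 (standard error 0.17, edgeR adjusted p = 0.626) and -0.29 without control replicate 3 (adjusted p = 0.340). Without control replicate 1 it was -0.019 (adjusted p = 0.989). Of the summed fibrillin FPKM, Fbn2 made up 6.03%, 4.48% and 2.89% in the controls and 2.91%, 3.27% and 2.65% in the Ni libraries. The means were 4.47% ± 1.57 and 2.94% ± 0.312 (SD, n = 3 each), and the groups overlapped. An exact two-sided permutation test of the difference in means gave p = 0.3 (Benjamini-Hochberg p = 0.48 over 8 such comparisons). The difference of -1.52 percentage points was -2.31 without control replicate 3 and -0.740 without control replicate 1. With 3 libraries a group this test cannot give a p below 0.1.

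Mfap2 (ENSMUSG00000060572), whose product MAGP1 binds fibrillin and TGF-β family ligands, lies on the plus strand of chromosome 4 from 141010418 to 141015984. Its level was 13.5, 11.3 and 17.7 FPKM in controls and 19.2, 17.6 and 14.1 FPKM in Ni libraries, so that the groups overlapped. Ni against control gave a log2 fold change of 0.26 (standard error 0.18, edgeR adjusted p = 0.566) and 0.46 without control replicate 3 (adjusted p = 0.0789), but 0.12 without control replicate 2 and 0.16 without Ni replicate 1. Emilin1 (ENSMUSG00000029163), whose product sits at the interface of elastin and microfibrils, lies on the plus strand of chromosome 5 from 30913402 to 30921277. Its level was 32.3, 35.3 and 44.5 FPKM in controls and 41.4, 48.7 and 38.9 FPKM in Ni libraries. Control replicate 3 exceeded 2 of the 3 Ni libraries. The fitted log2 fold change was 0.20 (standard error 0.14, edgeR adjusted p = 0.559), and without control replicate 3 it was 0.35 and just inside the threshold (adjusted p = 0.0497). It was 0.10 without Ni replicate 2 and 0.11 without control replicate 1.

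Efemp2 and Fbln5 encode fibulin-4 and fibulin-5, the fibulins that elastic fibre assembly requires in mice, and Fbln1 encodes a fibulin of elastic fibres and basement membranes. Their upstream sequences are shown because Efemp2 had the smallest p of the members, Fbln5 is its partner in assembly, and Fbln1 had a fold change of the opposite sign. RefSeq promoter entries (GRCm38.p6) matched 8 of the 10 members, in 13 windows, and each sequence printed holds the 250 bases before a RefSeq start, 5′ to 3′ on the strand of the gene, with no annotated exon in it. Capitals mark GGGCGG, the core of the GC box bound by Sp1 family factors, and ACGTG, the core of the hypoxia response element, on either strand.
Efemp2, chr19:5473696-5473945, plus strand: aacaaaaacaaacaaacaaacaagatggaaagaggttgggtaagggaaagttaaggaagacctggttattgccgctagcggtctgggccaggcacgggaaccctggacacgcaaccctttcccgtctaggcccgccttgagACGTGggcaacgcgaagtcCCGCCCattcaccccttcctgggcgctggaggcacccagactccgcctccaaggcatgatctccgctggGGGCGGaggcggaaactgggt
Fbln5, chr12:101819120-101819369, minus strand: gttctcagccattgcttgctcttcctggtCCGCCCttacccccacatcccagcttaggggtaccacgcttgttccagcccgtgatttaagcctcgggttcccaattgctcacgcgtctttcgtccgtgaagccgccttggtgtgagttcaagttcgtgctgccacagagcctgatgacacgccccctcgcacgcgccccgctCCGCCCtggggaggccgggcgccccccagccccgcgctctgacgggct
Fbln1, chr15:85205699-85205948, plus strand: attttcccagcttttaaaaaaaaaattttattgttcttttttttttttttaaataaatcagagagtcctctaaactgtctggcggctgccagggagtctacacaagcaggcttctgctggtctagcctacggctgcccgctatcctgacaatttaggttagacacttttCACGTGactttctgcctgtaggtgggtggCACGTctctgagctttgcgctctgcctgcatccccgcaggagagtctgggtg
The Efemp2 window held 2 GC boxes and 1 ACGTG match, the Fbln5 window 2 GC boxes, and the Fbln1 window 3 ACGTG matches, of which 2 overlap in the palindrome CACGTG. Base composition of these windows was 59.2% G or C for Efemp2, 65.2% for Fbln5 and 46.4% for Fbln1, against a median of 52.4% over all windows. Windows before other starts of the same genes, which hold annotated exons, differed from these. They had 75.6% and 78.8% for Efemp2 (5 GC boxes each), 49.6% for Fbln5 (0 GC boxes) and 62.4% for Fbln1 (1 GC box). A contrast among the 3 genes thus depends on the start chosen. Over the members' 13 windows, some of which overlap within a gene, GGGCGG occurred in 9 and ACGTG in 3, where 32.7% and 16.6% of the 32851 windows of all genes held them. TATAAA, the TATA box, and TGTGGT, the core bound by RUNX factors, occurred in 0 of the 13 (12.4% and 14.0% of all windows). GGAATG, the core bound by TEAD factors, and TGANTCA, the AP-1 site, each occurred in 1 (12.6% and 6.75%). These matches are letters in a window and are not measured binding.

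Efemp2 (ENSMUSG00000024909), which recruits lysyl oxidase to tropoelastin and lies on the plus strand of chromosome 19 from 5473973 to 5481853, had the smallest p of the members. Its level was 55.8, 54.6 and 73.1 FPKM in controls and 99.0, 79.9 and 89.2 FPKM in Ni libraries. Every Ni library was above every control, and the means were 61.2 ± 10.3 and 89.4 ± 9.57 FPKM (SD, n = 3 each). The fold change was 1.46, or 0.54 on the log2 scale (standard error 0.14), with an edgeR adjusted p of 0.248. DESeq2's Wald test gave 0.55 on the log2 scale and an adjusted p of 0.0197, and without control replicate 3 edgeR gave 0.70 and an adjusted p of 0.000671. The call thus differed between tools. Efemp2 shares 4.57% of its exon bases with exons of Mus81 on the opposite strand, a gene with 244 to 319 counts a library against 2311 to 4843 for Efemp2.

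Fbln5 (ENSMUSG00000021186), which binds tropoelastin and cell-surface integrins, lies on the minus strand of chromosome 12 from 101746565 to 101819055. Its level was 33.6, 32.8 and 37.3 FPKM in controls and 46.0, 36.2 and 41.9 FPKM in Ni libraries, so that Ni replicate 2 was lower than control replicate 3. Its log2 fold change was 0.26 (standard error 0.11, edgeR adjusted p = 0.371) and 0.32 without control replicate 3 (adjusted p = 0.0571). Efemp1 (ENSMUSG00000020467) encodes fibulin-3, which is found in the matrix of fascia and eye, and lies on the plus strand of chromosome 11 from 28853204 to 28926743. Its level was 13.9, 10.7 and 12.7 FPKM in controls and 14.7, 14.1 and 17.5 FPKM in Ni libraries. The groups did not overlap, but control replicate 1 and Ni replicate 2 lay close together. The log2 fold change was 0.31 (standard error 0.13, edgeR adjusted p = 0.364) and 0.33 without control replicate 3 (adjusted p = 0.155), the member least moved by that library.

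Fbln2 (ENSMUSG00000064080), whose product binds fibrillin and basement membrane proteins, lies on the plus strand of chromosome 6 from 91212455 to 91272540. Its level was 42.5, 43.4 and 82.2 FPKM in the controls and 78.8, 80.6 and 79.0 FPKM in the Ni libraries. The controls did not form 1 group: control replicate 3 had the highest level of the 6 libraries and the other controls the lowest. On the log2 scale the fold change was 0.50 (standard error 0.24, edgeR adjusted p = 0.407), and without control replicate 3 it was 0.89 (standard error 0.08, adjusted p = 7.29e-05). It was 0.34 without control replicate 1. Fbln1 (ENSMUSG00000006369) lies on the plus strand of chromosome 15 from 85205949 to 85286535. Its level was 9.36, 9.43 and 7.87 FPKM in controls and 7.58, 9.53 and 6.51 FPKM in Ni libraries. The groups overlapped, with Ni replicate 2 the highest of the 6, and the log2 fold change was -0.18 (standard error 0.15, edgeR adjusted p = 0.632) or -0.25 without control replicate 3 (adjusted p = 0.304). With other libraries left out it lay between -0.34, without Ni replicate 2, and -0.055, without Ni replicate 3.

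Of the 9 members tested, 0 passed an adjusted p of 0.05 in edgeR, against 0% of the 14624 genes tested. At an unadjusted p under 0.05, 3 members were higher (Efemp2, Efemp1 and Fbln5), against 7.59% of all genes tested, and 0 were lower, against 5.83%. Every Ni library lay above every control for 2 members, Efemp1 and Efemp2 (7.97% of all genes), and below for 0 (6.71%). DESeq2 called 1 member higher, Efemp2, against 1.46% of the genes it tested. The fold change was positive for 7 members (48.1% of all genes tested) and negative for Fbln1 and Fbn2. The members' median was 0.26 on the log2 scale, beside a median of -0.0099 over all genes tested. The members are few and their genes are not independent of one another.

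**Figure D2:**
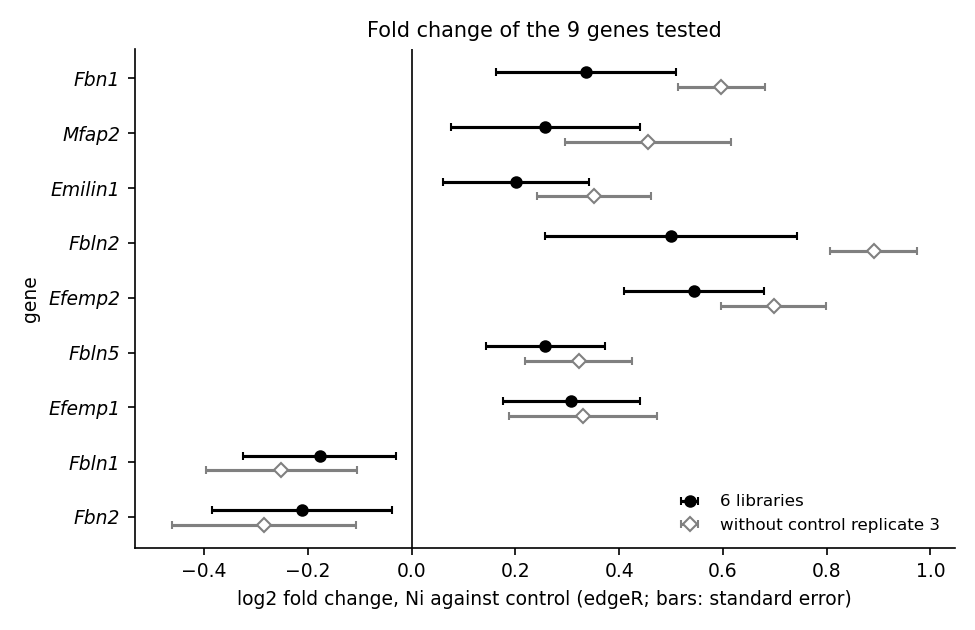
Log2 fold change of Ni against control for the 9 members tested (edgeR), with bars of 1 standard error, from all 6 libraries (filled circles) and without control replicate 3 (open diamonds). Without that library Fbln2 moved from 0.50 to 0.89 and Fbn1 from 0.34 to 0.60, and the signs of the 9 genes did not differ.

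Without control replicate 3, edgeR called 4 members higher (Fbn1, Fbln2, Efemp2 and Emilin1) and 0 lower, against 8.69% and 6.49% of the 15044 genes then tested, and the median was 0.35. On log2 CPM, control replicate 3 differed from the mean of the other controls by 0.94 for Fbln2, 0.66 for Fbn1, 0.52 for Mfap2, 0.41 for Efemp2 and 0.40 for Emilin1. The corresponding differences of the Ni mean were 0.89, 0.59, 0.44, 0.69 and 0.34, so that control replicate 3 went past the Ni mean for 4 of these 5 genes and not for Efemp2. For Fbln5 and Efemp1 it differed by 0.17 and 0.06, against 0.31 and 0.33 for the Ni mean. The 6 smooth muscle markers had a like distribution, with summed levels of 711.9, 762.1 and 1456 CPM in the controls and 1377, 1273 and 1310 CPM in the Ni libraries. Most of that sum was Acta2, with 12019, 11161 and 22459 counts in controls and 23056, 20013 and 21692 in Ni libraries. Of the 6 markers, 1 had every Ni library above every control (7.97% of all genes tested). The part of the cells that express these markers, or of the osteoblast markers' levels given above, in the members' levels was not tested.

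**Figure D3:**
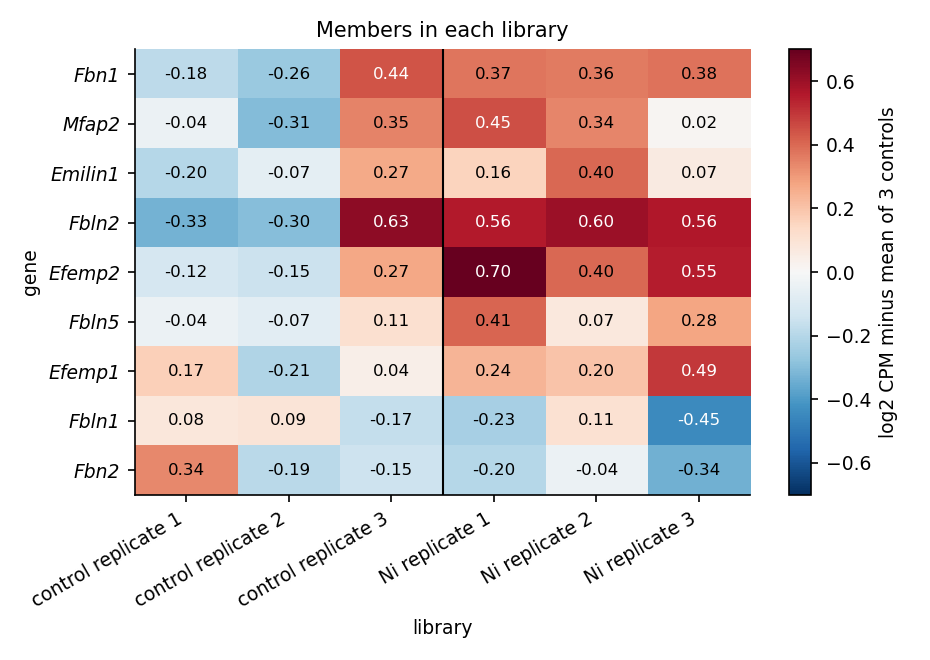
Log2 CPM of each member tested in each library, minus the mean of its 3 controls, with red above and blue below that mean. Fbn1 and Fbln2 in control replicate 3 look like the 3 Ni libraries, whereas Efemp2 in that library lies between the other controls and the Ni libraries.

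Sums and shares of FPKM were also compared, and scaling between libraries has no part in the shares. The 10 genes summed to 230.2, 224.8 and 318.7 FPKM in the controls and to 348.4, 327.9 and 328.8 FPKM in the Ni libraries. Every Ni library was above every control, with means of 335.1 ± 11.6 and 257.9 ± 52.7 FPKM (SD, n = 3 each), and the exact two-sided permutation p was 0.1, the smallest the design allows, or 0.4 after adjustment over the 8 comparisons. The difference of 77.2 FPKM was 107.6 FPKM without control replicate 3. On CPM, which is not divided by gene length, the groups overlapped (exact permutation p = 0.3). Among the 5 fibulins, Efemp2 made up 36.0%, 36.2% and 34.3% of the summed FPKM in controls and 40.2%, 36.3% and 38.1% in Ni libraries. These groups did not overlap, although Ni replicate 2 was within 0.1 percentage points of control replicate 2 (exact permutation p = 0.1, adjusted p = 0.4). Fbln1 made up 6.03%, 6.25% and 3.70% in controls and 3.08%, 4.33% and 2.78% in Ni libraries (exact permutation p = 0.2, adjusted p = 0.48), and the difference of -1.93 percentage points was -2.74 without control replicate 3. The highest share of Fbln2, 38.6%, was in control replicate 3, and it ranged from 32.0% to 36.6% in the Ni libraries (exact permutation p = 0.6). The shares of Fbln5 and Efemp1 overlapped between groups as well (exact permutation p = 0.3 and 0.6). Without control replicate 3 the control means were 36.1% for Efemp2, 28.1% for Fbln2, 21.7% for Fbln5 and 8.02% for Efemp1, beside 38.2%, 34.1%, 17.7% and 6.62% in the Ni libraries. The log2 ratio of Eln to Fbn1 was -9.29 ± 1.65 in controls and -9.36 ± 0.13 in Ni libraries (SD, n = 3 each, exact permutation p = 0.9), and -9.36 in the controls without control replicate 3.

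**Figure D4:**
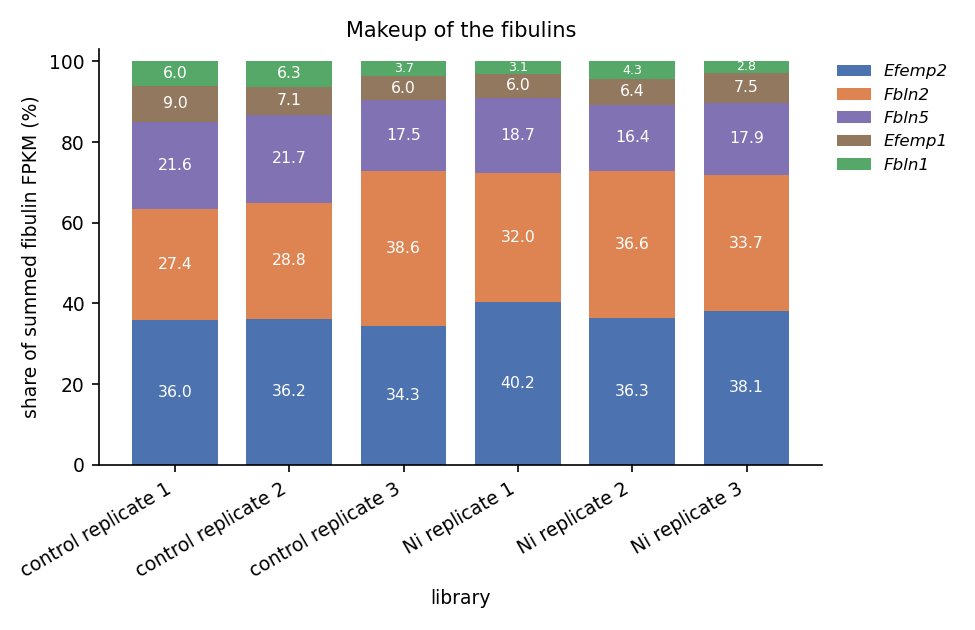
Share of the summed FPKM of the 5 fibulins taken by each gene in each library, in percent. Efemp2 and Fbln2 together made up most of the fibulin FPKM in every library, and control replicate 3 had the highest Fbln2 share, 38.6%.

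Likeness of the members' profiles over the 6 libraries was measured as the root mean square difference of log2 CPM, each gene centred on its own mean. The member nearest to Fbn1 was Fbln2 at 0.141, and Fbn1 was the nearest member to Efemp2 (0.149), Mfap2 (0.160) and Emilin1 (0.170). Fbln5 and Efemp1 were nearest to each other at 0.161, as were Fbn2 and Fbln1 at 0.174, and the least alike were Fbn2 and Fbln2 at 0.572. Over all genes tested, the 3 nearest to Fbn1, whose own profile spanned 0.70, were Cald1 (0.0334), Syt13 (0.0366) and Tgfb2 (0.0421). These distances describe 6 libraries that share the same group difference and the same control replicate 3. No such genes are given for Eln, which was not among the genes tested.

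Of 42 other genes of the pathway, 37 were tested and 0 passed an adjusted p of 0.05 in edgeR. At an unadjusted p under 0.05, 10 were higher (7.59% of all genes tested) and 1 was lower (5.83%). The fold change was positive for 26 (48.1% of all genes tested) and negative for 11, and the median was 0.28. DESeq2 called 2 of them higher (1.46% of all genes), Ltbp1 (adjusted p = 0.0282) and Dcn (adjusted p = 0.0214). Without control replicate 3 edgeR called 18 higher (8.69%) and 1 lower (6.49%), Tgfb1, with 28 positive and a median of 0.53. Every Ni library was above every control for 2 (7.97%), Ltbp1 and Hspg2, and below for 1 (6.71%), Hmcn1. Hspg2 and Hmcn1 were named after their values were seen, as was Mfap4, a microfibril protein gene that was not tested, with 1, 1 and 3 counts in controls and 11, 9 and 5 in Ni libraries.

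All 5 lysyl oxidases, which cross-link elastin and collagen, had positive fold changes (48.1% of all genes tested). Their median was 0.48, and 2 were higher at an unadjusted p under 0.05 (7.59% of all genes). The median was 0.81 without control replicate 3, and edgeR then called 4 of the 5 higher (8.69% of all genes). Lox was the most abundant, at 703.7 ± 161.3 FPKM in controls and 1027 ± 133.9 FPKM in Ni libraries (SD, n = 3 each), with a log2 fold change of 0.54 (standard error 0.18, edgeR adjusted p = 0.309), and of 0.75 without that library (adjusted p = 0.00103). Loxl4 had the largest difference, 0.98 (standard error 0.33, adjusted p = 0.311), at 1.29 and 2.54 FPKM, and 1.44 without it (adjusted p = 0.00222). The genes named as latent TGF-β binding proteins were positive for 4 of 4. Ltbp1 differed by 0.64 (standard error 0.17, edgeR adjusted p = 0.273) and by 0.88 without control replicate 3 (adjusted p = 0.000250). Ltbp2, the most abundant, differed by 0.34 (adjusted p = 0.430) and by 0.57 without it (adjusted p = 0.00517).

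Of the TGF-β ligands, Tgfb1 had 65.0 FPKM and a log2 fold change of -0.26 (edgeR adjusted p = 0.473), which was -0.39 without control replicate 3 (adjusted p = 0.0446). Tgfb2 differed by 0.41 (edgeR adjusted p = 0.372) and by 0.68 without it (adjusted p = 0.00126). The ligands thus differed in sign. Mfap5, the microfibril protein MAGP2, differed by 0.40 (edgeR adjusted p = 0.381) and by 0.68 without it (adjusted p = 0.000787).

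All 4 proteoglycans that bind microfibrils or elastin had positive fold changes (48.1% of all genes tested). Their median was 0.46, and 3 were higher at an unadjusted p under 0.05 (7.59% of all genes). The median was 0.72 without control replicate 3, and 3 were then called higher (8.69% of all genes). Bgn, which encodes biglycan and was the most abundant at 263.2 FPKM, differed by 0.41 on the log2 scale (edgeR adjusted p = 0.321) and by 0.53 without that library (adjusted p = 0.00485). Dcn, which encodes decorin, differed by 0.80 (standard error 0.24, edgeR adjusted p = 0.306) and by 0.99 without it (adjusted p = 0.0753). Of the 7 fibrillin-binding ADAMTS family genes tested, 6 were positive. Adamts6 differed by 0.71 (edgeR adjusted p = 0.389), or 1.19 without control replicate 3 (adjusted p = 0.0111), and the most abundant, Adamtsl4, was the negative one at -0.11 (adjusted p = 0.812), or -0.18 without it (adjusted p = 0.534).

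The emilin and fibulin relatives went the other way in sign, with 3 of 4 tested negative and a median of -0.36, or -0.38 without control replicate 3. Emilin2, with a mean of 111.3 FPKM, above that of every member, differed by -0.18 (edgeR adjusted p = 0.567), and by -0.22 without it (adjusted p = 0.237). Fbln7, at 0.196 FPKM, differed by -0.61 (standard error 0.55, edgeR adjusted p = 0.662) and by -0.53 without it (adjusted p = 0.664). The elastin receptor complex stood near 0, with Ctsa at -0.05 and Neu1 at -0.08 (edgeR adjusted p = 0.881 and 0.767), and at -0.07 and -0.10 without it.

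Of the 6 elastin-degrading proteases, 3 were positive and 3 negative, with a median near 0. Without control replicate 3, 5 were positive, the median was 0.42 and edgeR called 3 higher (8.69% of all genes). These were Mmp2, Mmp12 and Ctsk, named after their values were seen. Mmp12, the macrophage elastase, had 329, 252 and 2838 counts in controls and 1156, 769 and 1730 in Ni libraries, highest in control replicate 3. Its log2 fold change went from -0.0097 with 6 libraries to 2.00 without that library (edgeR adjusted p = 0.0320). Ctss, a cathepsin of macrophages, was the most abundant gene of these lists at 1302 FPKM and differed by -0.07 (edgeR adjusted p = 0.843), or 0.02 without it (adjusted p = 0.914). Mmp9, which osteoclasts and macrophages secrete, differed by -0.83 (standard error 0.32, edgeR adjusted p = 0.350) and by -0.67 without it (adjusted p = 0.436).

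**Figure D5:**
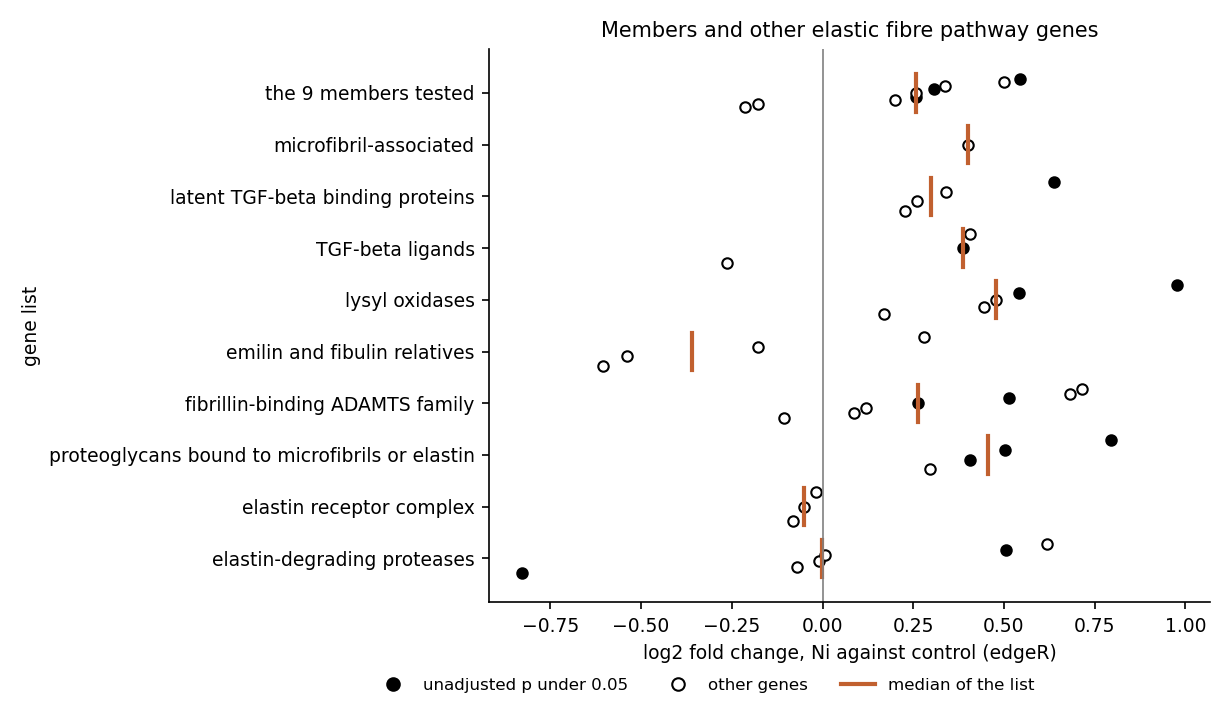
Log2 fold change of Ni against control (edgeR) for the 9 members tested and the tested genes of each pathway list, with filled points at an unadjusted p under 0.05 and a bar at the median of each list. The lysyl oxidases and proteoglycans lie above 0, with medians of 0.48 and 0.46, and the emilin and fibulin relatives have a median of -0.36.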

How the data were processed

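RNA of 6 libraries, 3 control and 3 Ni, was prepared with the NEBNext Ultra RNA kit from fragmented mRNA. The authors deposited raw counts per gene, without normalization, on GRCm38 per the labels. They also deposited FPKM values, which equal the counts divided by gene length and by 1 factor per library (largest relative deviation 3.29e-07). The aligner, the counting tool and the strand setting are not given in the sources used here. No column of the authors' own comparisons was used.

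Counts were filtered by filterByExpr, normalized by TMM, which assumes that most genes do not differ, and tested by the quasi-likelihood test (robust) of edgeR 4.0.16 in R 4.3.3, with p-values adjusted over all 14624 genes tested. A call was an adjusted p under 0.05, and p-values of these fits set the group difference against the spread between these samples. DESeq2 1.42.0 and limma 3.58.1 on log2(FPKM + 1) and log2(FPKM + 0.1) were alternatives. Overlap of groups and likeness of profiles used log2 CPM with a prior count of 2. Shares and sums of FPKM were compared by exact permutation tests (scipy 1.17.1). The sum was also taken on CPM, not divided by gene length. Exon overlaps were read from GENCODE M21, whose coordinates match the table for 8 of the 10 members, Fbn2 and Efemp2 being the exceptions. The fits were tested on simulated data. Counting intervals treat reads as independent molecules.

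The members and the pathway and marker lists were chosen with earlier results of these data known. All members are named, and of each pathway list the gene with the highest mean FPKM and that with the largest fold change among those tested. Mfap4, Emilin3, Mmrn1, Hmcn2 and Adamtsl2 had too few counts to be tested.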

Additional observations from a re-analysis of the deposited data

How the results depend on the processing

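Counts of members called depended on the setting. Of 9 members, 0 passed an adjusted p of 0.05 in edgeR, but 2 (Efemp2 and Fbln2) did with no filter on low counts and 1 (Efemp2) did with DESeq2. The 3 members at an unadjusted p under 0.05 became 5 with no filter. Over all genes, 1110 higher and 853 lower of 14624 passed that p in the main edgeR fit. With no filter these were 1768 and 1289 of 25876. On leaving out single libraries the adjusted count of members ranged from 0 to 4. Their unadjusted count ranged from 1 (without control replicate 2, Ni replicate 1 or Ni replicate 3) to 7. Both were highest without control replicate 3. Over all genes, 2285 were then higher and 1840 lower of 15044 at an unadjusted p under 0.05. Without control replicate 2 these were 599 and 269 of 14991. The 2 members whose groups did not overlap became up to 7 without control replicate 3 and 5 without Ni replicate 2, with a lowest count of 2. Over all genes tested, groups did not overlap for 14.7% with 6 libraries, 43.5% without control replicate 3 and 35.3% without Ni replicate 2. The adjusted p of Efemp2 ranged from 0.000253 to 0.814 (without control replicate 2) over its alternatives.

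Whether replicate numbers pair the samples is not known. Correlations of same-numbered deviations were 0.0104, 0.256 and 0.138, but differently numbered libraries were not compared, so these values cannot decide it. With the replicate block, 1 member (Efemp2, adjusted p = 0.0426) passed and 5 did so unadjusted, and the same counts, 1 and 5, came with the block when a trend with gene length was also removed. Over all genes, 1496 were higher and 1273 lower of 14624 at an unadjusted p under 0.05 with the block. The count at an adjusted p under 0.05 went from 0 to 315 of 14624 with the block. It was 1027 of 25876 with no filter, 256 of 14337 with DESeq2 and 2283 of 15044 without control replicate 3.

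The difference in the log2 ratio of Eln to Fbn1 turned from -0.07 to 0.72 without control replicate 2 and ranged down to -0.92. Eln had 2 to 16 counts a library, which limits what this depth can show of it. The median log2 fold change ranged from 0.21 to 0.35 with a library left out. Of 153 fold changes of single members under alternatives, 0 changed sign and 9 gained a call. The cause of the differences between settings was not tested.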
